A study of Homo sapiens with 8 samples.

Results

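The 9 genes described here are EGFR, ERBB2, MET, IGF1R, IRS1, IRS2, AKT1, TSC1 and MTOR. They encode growth factor receptors, the adaptors that receptors use, and kinases and regulators of the PI3K-mTOR pathway. They were chosen by name from 9046 Ensembl gene identifiers that carry a peak in at least 1 of 2 deposited peak lists, and earlier results of these lists were known when they were chosen. Which list holds their peaks was part of that choice, so those counts are given as a description with no test. All 9 genes were found, each under 1 identifier, and no other identifier had a peak in their spans.

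The study captured RNA bearing N4-acetylcytidine (ac4C), a modified cytidine that the acetyltransferase NAT10 forms, with an antibody and sequenced it beside input RNA. There were 2 populations: NAT10-knockout SiHa cells and SiHa cells with intact NAT10. SiHa is a human papillomavirus-positive cervical carcinoma line. Each population had 2 immunoprecipitated and 2 input libraries, 8 in all, and no drug treatment is named. How NAT10 was removed, and whether the knockout cells are a clone, is not given in the sources used here.

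Each population is represented by 1 peak list, so no value below has a replicate error and no difference has a replicate check. The list with an added K in its name was read as that of the knockout, which no label states in words. A peak comes with the authors' p-value, given here as −log10 p, and in the knockout list also with a false discovery rate and a fold enrichment whose denominator is not stated. These are the authors' values and rank peaks only within their own list. Neither read depth nor expression is known, so a missing peak cannot be told apart from less RNA of the gene or from fewer reads. NAT10 itself had no peak in the knockout list, against 1 SiHa peak of 359 bases with a −log10 p of 36.3. Of 9 epithelial markers, 2 had a peak in the knockout list and 3 in the SiHa list. Of 9 markers of blood, liver, vessel and stromal cells, none of which the labels name in this culture, 6 had a knockout peak and 4 a SiHa peak, among them ALB and HBB in both lists.

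Receptor tyrosine kinases span the cell membrane, bind a growth factor outside and phosphorylate tyrosines inside. EGFR and ERBB2 belong to the epidermal growth factor receptor family, MET binds hepatocyte growth factor and IGF1R binds insulin-like growth factors. IRS1 and IRS2 are docking proteins that link IGF1R and the insulin receptor to PI3K. PI3K makes a membrane lipid that recruits the kinase AKT1, AKT relieves the brake that TSC1 and TSC2 place on RHEB, and RHEB switches on the kinase MTOR. The pathway drives growth and protein synthesis and is often active in epithelial tumours.

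The 9 genes had far fewer peaks in the knockout list than in the SiHa list. They carried 7 knockout peaks with 1294 bases, against 36 SiHa peaks with 11477 bases. Knockout peaks numbered 19.4% of the SiHa peaks of these genes, against 35.3% over the whole lists (4557 against 12924 peaks). Knockout bases came to 11.3% of SiHa bases in these genes, against 24.8% over the whole lists. Since the genes were chosen with these lists in view, the lower shares are not evidence that the pathway differs from other genes.

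In the knockout list EGFR, ERBB2, MET and IRS1 had no peak, though each had SiHa peaks. IGF1R, IRS2, AKT1 and TSC1 had peaks in both lists, and MTOR had a knockout peak alone. Thus 4 of the 8 genes with a SiHa peak had none in the knockout, against 71.9% of all 5828 named genes with a SiHa peak. The other 4 had a knockout peak somewhere in the gene, against 28.1% of those named genes. The share was 3 of 6 among those of the 9 with 4 or more SiHa peaks, against 55.9% of all 510 named genes with as many. It was 1 of 2 among those with 1 SiHa peak, against 77.6% of all such genes. Of the 5 genes with a knockout peak, 1 had no SiHa peak, against 45.5% of all 3006 named genes with a knockout peak.

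**Figure D1:**
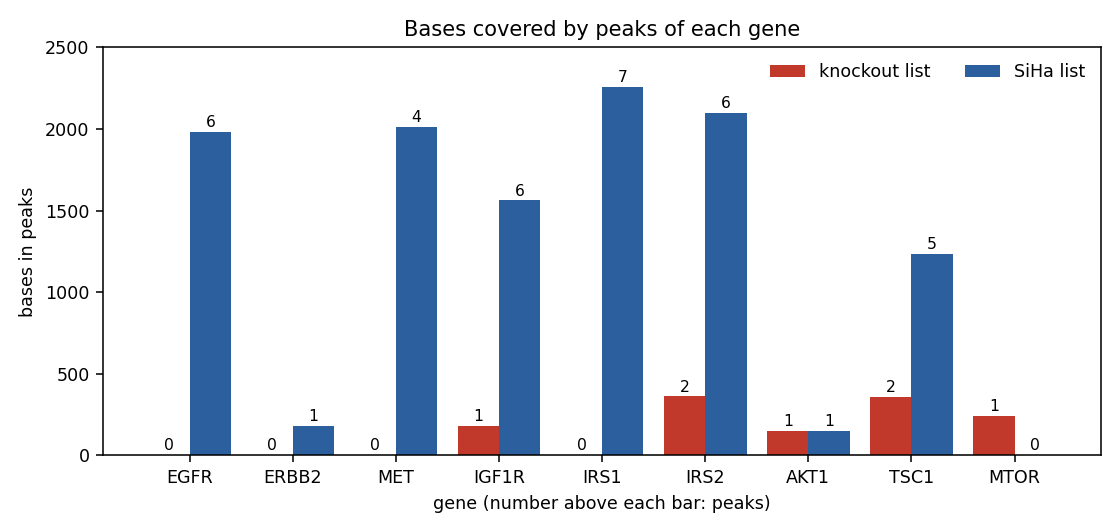
Bases in peaks of each gene (vertical axis) in the knockout list (red, left bar) and the SiHa list (blue, right bar), with the number of peaks above each bar. EGFR, ERBB2, MET and IRS1 have 0 bases in the knockout list, AKT1 has 151 bases in either list, and MTOR has 241 bases in the knockout list alone.

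EGFR (ENSG00000146648, GRCh38 chromosome 7, 55019017 to 55211628, plus strand) had no peak in the knockout list, against 6 peaks with 1983 bases in the SiHa list. The strongest SiHa peak covered 510 bases at 55205428 to 55205937, had a −log10 p of 288 and ranked 343 of 12924 in its list. The next in strength had 570 bases at 55206147 to 55206716 and a −log10 p of 152. All 6 peaks lay in the last 10% of the gene span, the last of them 449 bases before its end. The other 4 were weaker, with a −log10 p of 28.8, 9.37, 4.66 and 3.92. As many SiHa peaks as in EGFR were found in 2.18% of named SiHa genes, and as many bases in 1.54%. By number of peaks and of bases EGFR was thus near the top of the SiHa list, and it was absent from the knockout list.

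MET (ENSG00000105976, chromosome 7, 116672196 to 116798377, plus strand) likewise had no knockout peak, against 4 SiHa peaks with 2012 bases. Its longest peak had 960 bases at 116699282 to 116700241, the longest among the 36 SiHa peaks of the 9 genes, and a −log10 p of 199. That peak began 27.1 kb from the gene start. At the other end of the gene, a peak of 660 bases at 116797637 to 116798296 with a −log10 p of 150 stopped 81 bases before the end of the span. Between them lay a peak of 241 bases and a weak one of 151 bases in 2 blocks with a −log10 p of 2.52. The strong SiHa peaks of MET thus lay far apart, where those of EGFR lay together near the 3′ end.

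ERBB2 (ENSG00000141736, chromosome 17, 39688094 to 39728658, plus strand) encodes HER2, the co-receptor of the family that binds no known ligand. It had no knockout peak, against 1 SiHa peak of 180 bases at 39727810 to 39727989. With a −log10 p of 5.40 this peak was below the SiHa list's median of 6.05. It lay 669 bases before the end of the span. When SiHa peaks were held to a −log10 p above 8, ERBB2 had no peak in either list. Under that rule 3 of 7 genes with a SiHa peak (EGFR, MET and IRS1) had none in the knockout, against 65.2% of all named genes. With the SiHa list limited to as many peaks as the knockout list, the same genes made 3 of 6, against 64.6%.

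IGF1R (ENSG00000140443, chromosome 15, 98648539 to 98964530, plus strand) was the only receptor of the 9 genes with a knockout peak. It had 1 knockout peak of 181 bases, against 6 SiHa peaks with 1562 bases. The knockout peak, at 98958330 to 98958510, had a fold of 5.13, a −log10 p of 2.88 and a false discovery rate of 0.0174. The strongest SiHa peak, 240 bases at 98961625 to 98961864, had a −log10 p of 251. No knockout peak lay on it: the knockout peak was 3114 bases upstream. The knockout peak instead shared 61 bases with the weakest SiHa peak of the gene, whose −log10 p was 2.18. All 7 peaks of IGF1R lay in the last 10% of its span, as the 6 of EGFR did.

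**Figure D2:**
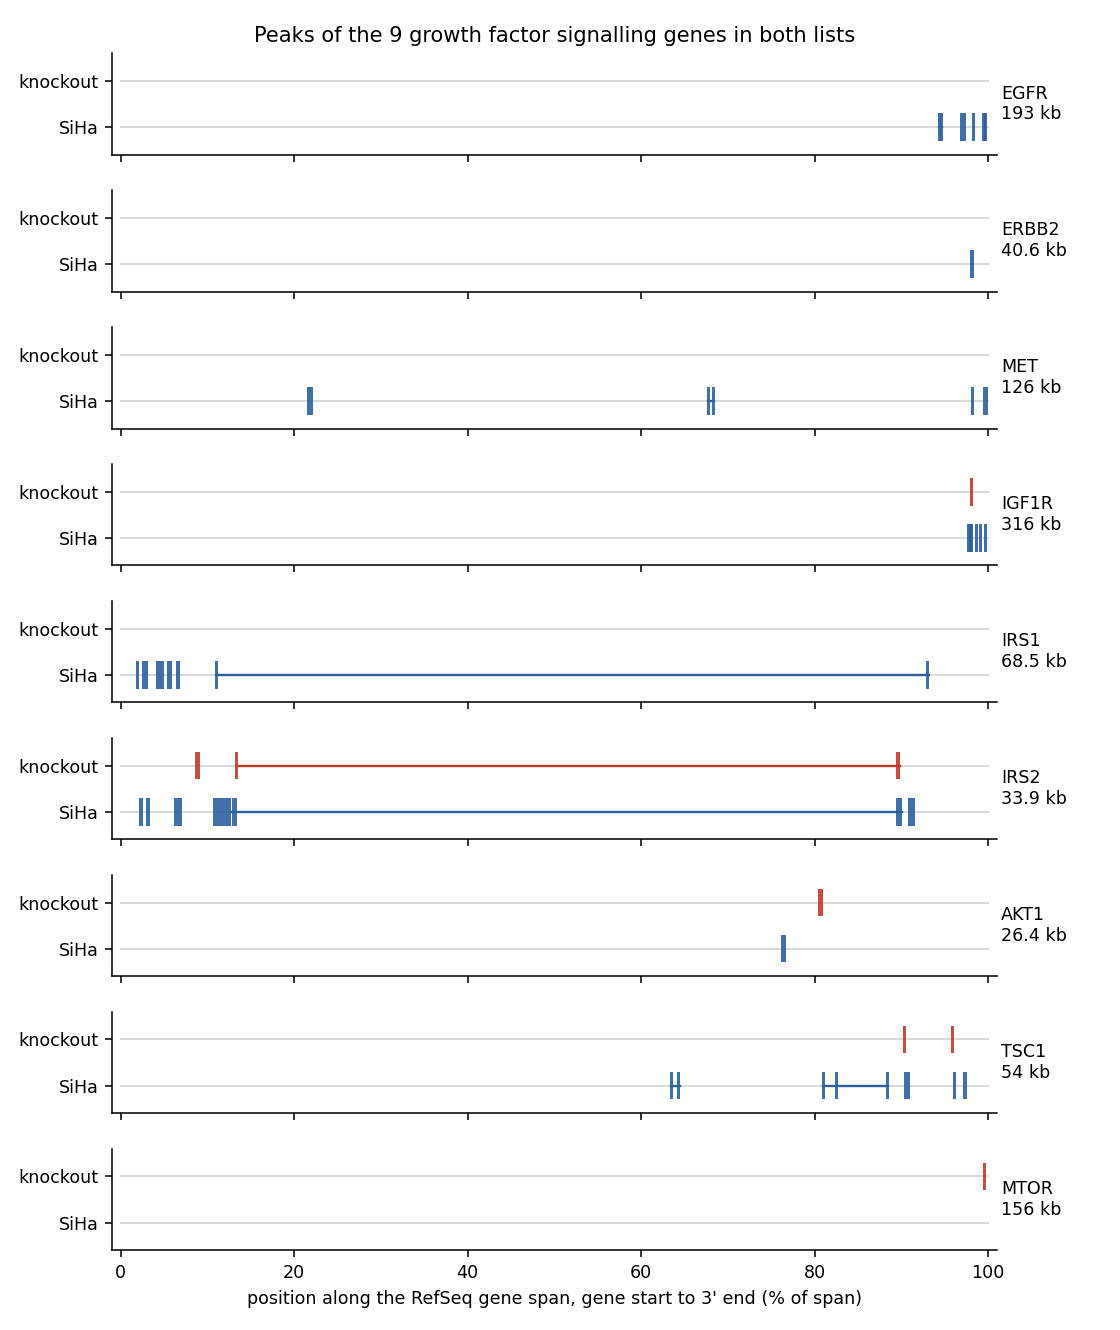
Position of every peak block along the RefSeq span of each gene, in percent of the span from the gene start to the 3′ end, with the knockout list (red) above the SiHa list (blue). Lines join blocks of 1 peak, very short blocks are drawn at a fixed minimum width, and the peaks of EGFR, ERBB2, IGF1R and MTOR all lie in the last 10%.

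IRS1 and IRS2 differed in the knockout list. IRS1 (ENSG00000169047, chromosome 2, 226731312 to 226799820, minus strand) had no knockout peak, against 7 SiHa peaks with 2255 bases, the most of the 9 genes on either measure. Of those 7 peaks, 6 lay in the first 10% of the span. The strongest were 391 bases at 226795772 to 226796162 with a −log10 p of 69.9 and 660 bases at 226796372 to 226797031 with a −log10 p of 55.6. The seventh spanned a skipped stretch of 55887 bases, as a peak across a splice junction would, and had 421 bases and a −log10 p of 22.4.

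IRS2 (ENSG00000185950, chromosome 13, 109752695 to 109786583, minus strand) had 2 knockout peaks with 361 bases, against 6 SiHa peaks with 2100 bases. Its strongest SiHa peak, 270 bases at 109755570 to 109755839 with a −log10 p of 196, had no knockout counterpart. The next, of 449 bases with a −log10 p of 141, lay across a skipped stretch of 25733 bases from 109756309 to 109782041. A knockout peak of 181 bases crossed exactly the same stretch and lay wholly within that SiHa peak. This knockout peak had the highest fold of the 7, 59.0, with a −log10 p of 13.6 and a false discovery rate of 1e-12. The other knockout peak, 180 bases at 109783487 to 109783666, fell between SiHa peaks, 508 bases from the nearest on either side. Its fold was 10.3 and its false discovery rate 0.526, so it does not pass a false discovery rate of 0.05.

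The docking proteins had SiHa peaks in the first 10% of the span, and the receptors had none there. Of the 36 SiHa peaks, 9 lay in the first 10% of a gene span, 6 in IRS1 and 3 in IRS2, against 5.88% of 8629 SiHa peaks in named genes with a known strand. The 3 in IRS2 had a −log10 p of 29.6, 3.44 and 1.57, while its strongest peak, at 196, lay in the last 10%. The last 10% of the span held 19 of the 36 (52.8%), against 38.7% of those peaks and 46.8% of peaks in genes with a span of 20 kb or more. Spans include introns, so these shares describe where along the gene the peaks fell and not where along the mature RNA. A gap between blocks was found in 16.7% of the SiHa peaks of these genes, against 25.2% in the whole SiHa list.

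**Figure D3:**
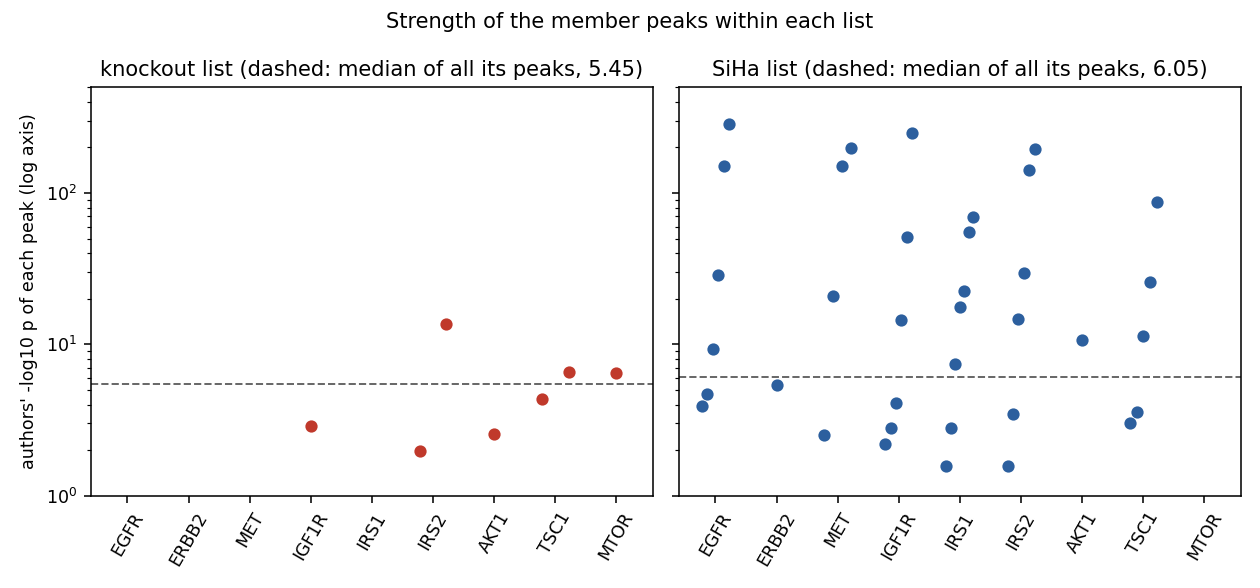
The authors' −log10 p of every peak of the 9 genes on a log axis, with the knockout list at left and the SiHa list at right. Each point is 1 peak, the dashed line is the median of all peaks of that list (5.45 and 6.05), and the 2 axes rank peaks within a list and are not a common scale of ac4C.

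AKT1 (ENSG00000142208, chromosome 14, 104769349 to 104795748, minus strand), the kinase that PI3K recruits, had 1 peak of 151 bases in either list. The knockout peak lay at 104774367 to 104774517, with a fold of 12.8, a −log10 p of 2.56 and a false discovery rate of 0.525. The SiHa peak lay at 104775504 to 104775654, with a −log10 p of 10.7. The peaks were 986 bases apart and did not overlap. When knockout peaks were held to a false discovery rate of 0.05, AKT1 joined the genes with a SiHa peak alone, making 5 of 8, against 76.9% of all named genes under that rule. In the knockout list 2 of the 7 peaks, this one and the first of IRS2, exceeded that rate, against 25% of all knockout peaks.

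TSC1 (ENSG00000165699, chromosome 9, 132891349 to 132945378, minus strand) encodes hamartin, which with TSC2 restrains RHEB. It had 2 knockout peaks with 360 bases, against 5 SiHa peaks with 1234 bases. Both knockout peaks overlapped a SiHa peak. The first, 180 bases at 132896438 to 132896617, lay wholly in a SiHa peak of 390 bases and had the same 5′ edge. It had a fold of 9.61 and a false discovery rate of 5.9e-06, and the SiHa peak a −log10 p of 11.4. The second, at 132893474 to 132893653, had a fold of 8.55 and a false discovery rate of 0.00074, and shared 91 bases with a SiHa peak whose −log10 p was 26.0. The strongest SiHa peak of TSC1, 211 bases at 132892695 to 132892905 with a −log10 p of 87.5, was not overlapped. TSC1 was the gene of the 9 in which the most SiHa peaks, 2 of 5, had a knockout peak on them.

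MTOR (ENSG00000198793, chromosome 1, 11106535 to 11262551, minus strand), the kinase at the end of this chain, had 1 knockout peak and no SiHa peak. The peak had 241 bases at 11107045 to 11107285, 510 bases before the end of the span. Its fold was 5.41, its −log10 p 6.42 and its false discovery rate 7.9e-06. It was the widest of the 7 knockout peaks. The fold stood below the knockout list's median of 12.8, while the −log10 p stood above that list's median of 5.45.

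Peaks at the same place in both lists were thus found in 3 of the 9 genes, IGF1R, IRS2 and TSC1. That is 3 of 8 with a SiHa peak, against 11.2% of all named genes with a SiHa peak, and 3 of 4 with peaks in both lists, against 39.8% of all such genes. These shares are not like for like. Of the 8 genes, 6 had 4 or more SiHa peaks, against 510 of 5828 named genes, and no overlap share for such genes is given here. The genes were also chosen with these lists in view, so the shares are a description only. By peak, 4 of 7 knockout peaks (57.1%) and 4 of 36 SiHa peaks (11.1%) were overlapped, against 19.2% and 6.76% of the whole lists. In none of the 3 genes did the overlap fall on the strongest SiHa peak. The overlaps were partial, 61 bases in IGF1R, 181 in IRS2, 180 and 91 in TSC1, and no pair shared 50% of both peaks. With SiHa peaks held to a −log10 p above 8, or limited to as many as the knockout list, only IRS2 and TSC1 kept an overlap. Without knockout peaks on a repeated series of folds, described below, only IGF1R and TSC1 did.

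**Figure D4:**
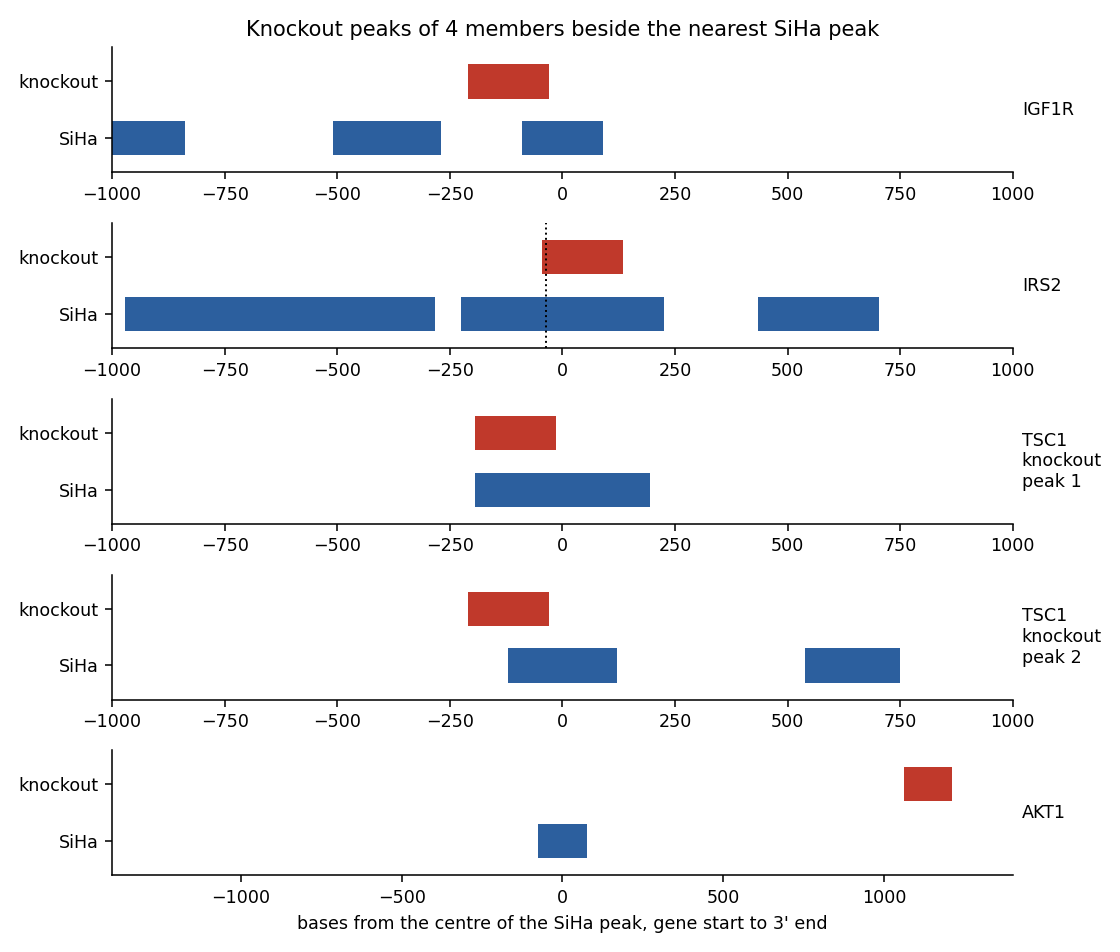
Peak blocks of the knockout list (red, upper row) and the SiHa list (blue, lower row) around 1 SiHa peak per panel, in bases from its centre and running from the gene start to the 3′ end. TSC1 has a panel for each of its SiHa peaks with a knockout peak on it. In IRS2 the skipped stretch is taken out at the dotted line. The knockout peaks lie on a SiHa peak in IGF1R, IRS2 and TSC1 and 986 bases from it in AKT1.

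By strength, 22 of the 36 SiHa peaks (61.1%) had a −log10 p above 8, against 43.1% of the SiHa list. A −log10 p above 100 was found in 7 of the 36, a larger share than the 7.04% of the SiHa list. Those 7 were in EGFR, MET, IGF1R and IRS2. Of the 7 knockout peaks, 1 had a −log10 p above 8, the gapped peak of IRS2. Among genes with a SiHa peak of −log10 p above 100, EGFR and MET had no knockout peak, 2 of 4, against 55.7% of all 641 such genes.

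Many folds of the knockout list repeat. In 45.3% of its peaks the fold was a whole multiple, 3 or more, of 2.56, with the lowest −log10 p that the list holds at that fold. Of the 7 knockout peaks, 3 were of this kind, both of IRS2 and that of AKT1, at 4, 23 and 5 times the unit. The peaks of IGF1R, TSC1 and MTOR were not. Why the values repeat is not stated in the sources used here and was not tested. Without such peaks, IRS2 and AKT1 joined the genes with a SiHa peak alone, making 6 of 8, against 81.3% of all named genes under that rule.

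A wider list of 131 genes of the pathway in 8 roles, which holds the 9 genes, was read in the same way. Of its genes, 38 had a knockout peak and 74 a SiHa peak. A knockout peak alone was found in 15 genes, peaks in both lists in 23 and a SiHa peak alone in 51. Another 8 had peaks but no unique name, and 34 had no peak. The share without a knockout peak was 51 of 74 (68.9%, 95% exact binomial interval 57.1 to 79.2%, which covers counting of genes only), against 71.9% of all named genes. Without the 9 genes it was 47 of 66 (71.2%). The wider pathway thus stood near the background. By role the groups are small and the intervals wide, so the shares given below cannot tell a role from the background.

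**Figure D5:**
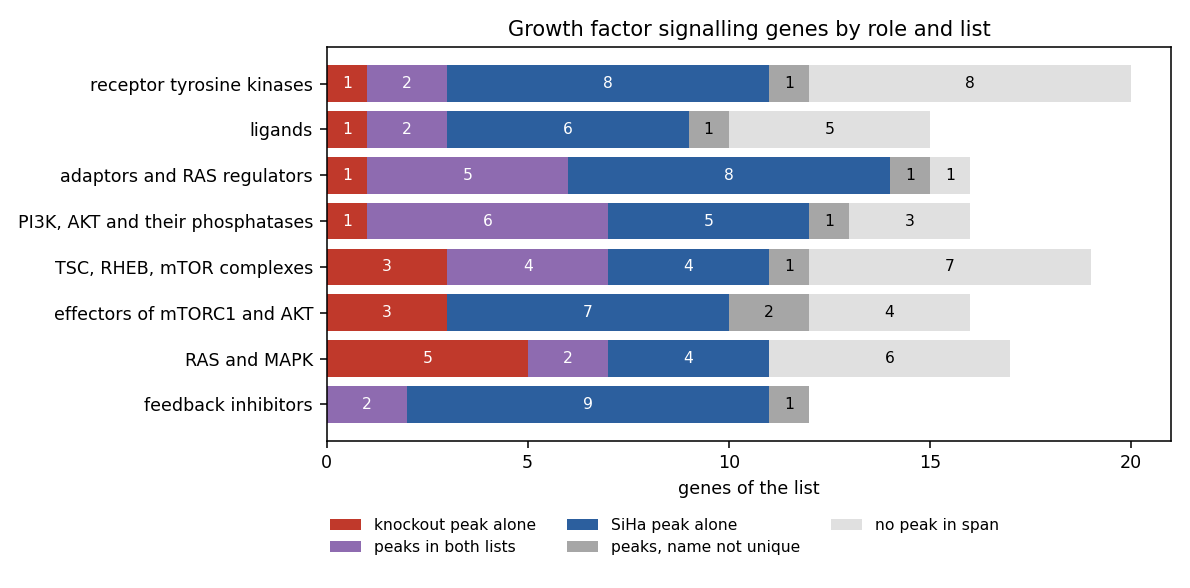
Number of genes of each role (horizontal axis) with a knockout peak alone (red), peaks in both lists (purple), a SiHa peak alone (blue), peaks without a unique name (grey) and no peak (light grey). The 7 uniquely named effectors of mTORC1 and AKT with a SiHa peak lie in the blue class, the 2 in the grey class have peaks of both lists in their spans, and PI3K and AKT genes have 6 in the purple class.

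Among 20 receptor tyrosine kinases, 8 had a SiHa peak alone, 2 had peaks in both lists and 1 had a knockout peak alone. The 8 of 10 with SiHa peaks but none in the knockout (80.0%, interval 44.4 to 97.5%) stand against 71.9% of all named genes. ERBB4, another member of the EGFR family, had no knockout peak and 1 SiHa peak of 181 bases with a −log10 p of 110. PDGFRA, a platelet-derived growth factor receptor, had no knockout peak and 2 SiHa peaks, the stronger with a −log10 p of 60.5. DDR1, a collagen receptor, had 2 knockout peaks with folds of 59.0 and 15.4, and a SiHa peak elsewhere with a −log10 p of 2.42. Both of these knockout peaks were on the repeated series of folds. The one with a fold of 15.4 had a false discovery rate of 0.155. INSR, the insulin receptor and a close relative of IGF1R, had 2 knockout peaks with folds of 17.9 and 12.8 and no SiHa peak. Their false discovery rates were 0.0447 and 0.525, and both peaks were on the repeated series.

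Of 15 ligands, 6 had a SiHa peak alone, 2 both and 1 a knockout peak alone, so 6 of 8 with a SiHa peak had none in the knockout, against 71.9% of all named genes. The ERBB ligand NRG1 had 2 SiHa peaks, with a p listed at 0 for the stronger, and no knockout peak. VEGFA, which acts on vessels, had no knockout peak and 3 SiHa peaks, with a −log10 p of up to 198. TGFA, a ligand of EGFR, had 1 knockout peak of 240 bases with a fold of 38.5, which overlapped the SiHa peak with a −log10 p of 46.5. PDGFB had a knockout peak with a fold of 43.6 on a weak SiHa peak with a −log10 p of 2.18. The knockout peaks of TGFA and PDGFB were both on the repeated series of folds. EREG, another EGFR ligand, was found in the knockout list alone, where its peak had a fold of 7.69.

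Of 16 adaptors and RAS regulators, 8 had a SiHa peak alone, 5 had both and 1 had only a knockout peak. Those without a knockout peak were 8 of 13 (61.5%, interval 31.6 to 86.1%), against 71.9% of all named genes. GRB10, an adaptor that restrains insulin signalling, had no knockout peak and a SiHa peak with a −log10 p of 155. CRK had a SiHa peak with a −log10 p of 174 at 1436822 to 1456110. Its knockout peak, with a fold of 8.97, lay close by at 1423584 to 1436732 and did not overlap it. SOS1, the exchange factor that activates RAS, had overlapping peaks, with a fold of 8.97 in the knockout and a −log10 p of 22.6 in SiHa. SHC1 was found in the knockout list alone, at a fold of 3.31.

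Of 16 genes of PI3K, AKT and their phosphatases, 6 had peaks in both lists, 5 only a SiHa peak and 1 only a knockout peak. No knockout peak was found in 5 of the 11 with a SiHa peak (45.5%, interval 16.7 to 76.6%), against 71.9% of all named genes. AKT1 and AKT2 counted among the 6 only through knockout peaks with false discovery rates of 0.525 and 0.526. The catalytic subunit PIK3CA had no knockout peak and 1 SiHa peak of 451 bases with a −log10 p of 132, and the regulatory subunit PIK3R1 no knockout peak and 3 SiHa peaks of up to 61.4. PIK3C2A had an overlapping pair, with a fold of 7.52 in the knockout and a −log10 p of 33.0 in SiHa. PHLPP2, which dephosphorylates AKT, had 2 knockout peaks with folds of 79.5 and 15.4 and a SiHa peak elsewhere. The peak with a fold of 79.5 was on the repeated series of folds.

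Of 19 genes of TSC, RHEB and the mTOR complexes, 4 had both, 4 only a SiHa peak and 3 only a knockout peak. No knockout peak was found in 4 of the 8 with a SiHa peak (interval 15.7 to 84.3%), against 71.9% of all named genes, and no SiHa peak in 3 of the 7 with a knockout peak, against 45.5%. RICTOR, the defining subunit of mTOR complex 2, had overlapping peaks, with a fold of 31.6 in the knockout and a −log10 p of 13.4 in SiHa. DDIT4, a stress-induced inhibitor of mTORC1, had overlapping peaks that began at the same base, with a fold of 4.54 in the knockout and a −log10 p of 36.6 in SiHa. TSC2, the partner of TSC1, resembled MTOR in having a knockout peak alone, but with a false discovery rate of 0.526. The amino acid sensing GTPase RRAGA had no knockout peak and a SiHa peak with a −log10 p of 76.5.

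Of 16 effectors of mTORC1 and AKT, 7 had a SiHa peak alone, none that could be named uniquely had both, and 3 had a knockout peak alone. Another 2, EIF4E and MDM2, had peaks of both lists in their spans that could not be given to 1 gene, and are named here after their values were seen. By span, 7 of 9 effectors with a SiHa peak (77.8%) thus had none in the knockout, against 71.9% of all named genes. The 71.9% counts uniquely named genes only, and no share by span over all genes is given here. The 7 include LARP1, which binds mRNAs of the translation machinery, with 4 SiHa peaks of up to 85.9 in −log10 p. The 7 also include the S6 kinase RPS6KB1 and the transcription factors FOXO1 and FOXO3, which AKT phosphorylates, with 19.2, 14.8 and 7.38 for their strongest peaks. The glycogen synthase kinase GSK3B had a knockout peak alone, of 241 bases with a fold of 76.9. The other two were RPS6KB2, the second S6 kinase gene, with a fold of 25.6 and a false discovery rate of 5.2e-05, and ULK1, a kinase that starts autophagy, with a fold of 10.3 and a false discovery rate of 0.526. Both of those peaks were on the repeated series of folds.

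In the RAS and MAPK branch, 5 of 17 genes had a knockout peak alone, 2 had both and 4 a SiHa peak alone. Thus 5 of 7 with a knockout peak had no SiHa peak, against 45.5% of all named genes with a knockout peak, and 4 of 6 with a SiHa peak had no knockout peak, against 71.9%. MYC had overlapping peaks, with a fold of 23.9 in the knockout and a SiHa p listed at 0. JUN had no knockout peak and 4 SiHa peaks, with a p listed at 0 for the strongest. BRAF and ELK1 had a knockout peak alone at a false discovery rate of 0.526 each, that of BRAF on the repeated series of folds. EGR1, an immediate early gene, had 2 knockout peaks with folds of 3.41 and 2.52 and no SiHa peak.

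Of 12 feedback inhibitors of receptor signalling, 9 had a SiHa peak alone, 2 had both and 1 had peaks without a unique name. The 9 of 11 with SiHa peaks but none in the knockout (81.8%, interval 48.2 to 97.7%) stand against 71.9% of all named genes. ERRFI1, which inhibits EGFR, had a knockout peak with a fold of 7.18 inside a SiHa peak of 1286 bases whose p was listed at 0. DUSP1, a phosphatase of MAP kinases, had overlapping peaks that shared an edge, with a fold of 6.23 in the knockout and a −log10 p of 12.6 in SiHa. SPRED1, DUSP4 and SPRY1 had no knockout peak. Their strongest SiHa peaks had a p listed at 0, a −log10 p of 205 and a −log10 p of 156.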

How the data were processed

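The deposited data are 2 peak lists, 1 per population. Per the file headers, each line gives a chromosome, blocks, a strand, an Ensembl identifier and a score, which by its values is the authors' p-value. The deposited knockout list adds 3 columns, per the file headers: the p-value and the false discovery rate, both as log10, and the fold enrichment, a ratio. Per the submitters' processing notes, FastQC 0.11.7 and the GRCh38 build were used. Of the peak caller, the aligner and the handling of replicates nothing is given in the sources used here.

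Peaks off the assembled chromosomes, 2 in the knockout and 3 in the SiHa list, were dropped, as was 1 repeated SiHa line. Identifiers were named by position from RefSeq spans (GRCh38.p14). A name needed 90% of an identifier's peak bases in 1 span alone, with no other identifier so placed. Spans known to lie on the other strand were passed over, and 15843 of 20050 protein-coding genes had a known strand. Of 9046 identifiers, 7197 (79.6%) received a name. Overlap meant at least 1 shared base in blocks on the same strand. Tools were Python 3.11.15, pandas 2.3.3 and SciPy 1.17.1, and the naming and overlap steps were tested on simulated data. The genes and lists were chosen with earlier results of these data known. Genes named from the wider list were, by role, up to 4 in both lists and up to 4 with a SiHa peak alone (smallest p), and up to 4 with a knockout peak alone (highest fold). No test was run, since each population has 1 list. Not every gene that this rule names is reported here.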

Additional observations from a re-analysis of the deposited data

How the results depend on the processing

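No paired analysis was possible because the lists hold no values of single replicates, and for the same reason no replicate could be left out. With SiHa peaks held to a −log10 p above 8, the 9 genes had 22 SiHa peaks in place of 36. With only the 4557 SiHa peaks of lowest p they had 20, the genes with a knockout peak alone became 2 (MTOR and AKT1), and pathway genes with a SiHa peak alone became 32 in place of 51. With knockout peaks held to a false discovery rate of 0.05, 9 pathway genes had a knockout peak alone in place of 15. Without knockout peaks on the repeated series, that count was also 9, the 9 genes had 4 knockout peaks in place of 7, and 2 genes (IGF1R and TSC1) had peaks in both lists in place of 4. With reciprocal overlap of 50% the genes with overlapping peaks became 0 in place of 3. EGFR, MET and IRS1 kept a SiHa peak and MTOR its knockout peak under each of the 4 settings that filter a list. Such settings only remove peaks, so none could give these genes a peak in the other list. Naming without strand, chosen after seeing the data, moved no class count by over 1.5 times.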

Other observations

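Peak edges fell on a common grid. Of 638 overlapping pairs of single-block peaks with the same identifier, 588 (92.2%) had starts apart by a multiple of 30 bases, within 1 base, and 192 (30.1%) shared an edge exactly. All 3 such pairs of IGF1R and TSC1 followed the grid and 1 shared an edge. Widths of single-block peaks were multiples of 30 bases within 1 base in 95.3% of the knockout list and 93.6% of the SiHa list. Peak edges were thus mostly placed in steps of 30 bases, which bears on the edges that TSC1 and DDIT4 share between the lists. The DUSP1 peaks also share an edge, but their widths of 238 and 268 bases are not multiples of 30 within 1 base.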
